A study of Mus musculus with 2 samples.

Results

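Melanocytes of the mouse eye wall were picked out of a preparation of retinal pigment epithelium (RPE), choroid and sclera by the RNA counts of single droplets. The preparation was profiled by single-cell RNA sequencing in 2 libraries. Melanocytes were chosen by their measured Pmel: a droplet was counted when it held at least 5 UMIs of Pmel (UMIs are tags that each mark 1 captured RNA molecule) and Pmel was at least 3000 counts per 1000000 UMIs of that droplet (CPM), with under 10 UMIs of the RPE gene Rpe65 and under 2000 CPM of the fibroblast gene Dcn. The droplets also had over 500 UMIs, over 200 and under 6000 genes and a mitochondrial share under 0.2. This left 1664 melanocytes of 35627 kept cells (4.67%). Whether they lay in the choroid was not read from these counts, which hold no position in the tissue.

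The control library came from eyes injected under the retina with 1 µl of phosphate-buffered saline (PBS), and the Dox library from eyes injected with 1 µl of doxorubicin, a DNA-damaging drug, at 100 ng/µl. Both groups were male C57BL/6J mice 3 months of age, taken 7 days after injection, with no transgene or deletion named in the labels. The cells of 10 eyes of 5 mice were pooled in each library, so that each condition had 1 library, no test between the conditions was possible, and treatment, library and injection cannot be told apart. Every interval below is a 95% interval of counting error only.

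Melanocytes arise from the neural crest and make melanin in melanosomes, organelles related to lysosomes, whereas the RPE is a pigmented epithelium that comes from the neural tube and makes melanin with much of the same machinery. The factor MITF drives the genes of melanin synthesis in both, SOX10 and PAX3 act with it in melanocytes, and the receptors EDNRB and KIT guide melanocyte precursors. In the choroid, melanocytes lie among vessels and fibroblasts behind the RPE.

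Short stretches of the promoters of Tyr, Tyrp1 and Dct are shown first, since these are central genes of melanin synthesis and each holds a match to CATGTG, the core of a site known for MITF. The 30 bases around the match are written 5′ to 3′ on the strand of the gene, with CATGTG in capitals (RefSeq, GRCm38.p6).
Tyr, chr7:87493516-87493545, minus strand: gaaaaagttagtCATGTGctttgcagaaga
Tyrp1, chr4:80834155-80834184, plus strand: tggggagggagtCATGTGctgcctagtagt
Dct, chr14:118052379-118052408, minus strand: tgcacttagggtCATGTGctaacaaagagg
The capitals begin 21 bases before the RefSeq start of Tyr, 46 before that of Tyrp1 and 150 before that of Dct, which holds another match, CACATG, 232 bases before it. The GENCODE start of Tyrp1, at 80834123, lies further upstream, so that the match is inside the gene by that annotation. In the 250 bases before the start, CATGTG on either strand (CATGTG or its reverse complement CACATG) was present in 12.3% of 32851 promoters. The longer run TCATGTGCT, searched only after the 3 sequences had been seen, was present in 110 of them (0.335%). No CATGTG was found in the same window of Ednrb or Hhatl, though by GENCODE the window of Ednrb and 1 of the 2 windows of Hhatl lie inside the gene. A match of letters describes the sequence and is no measured binding.

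Melanocytes numbered 1302 of 20189 kept cells in control (6.45%, 6.11 to 6.80) and 362 of 15438 in Dox (2.34%, 2.11 to 2.60). The control share was 2.75 times that of Dox (2.45 to 3.10). Free Pmel, the transcript that chose the cells, was 3.59 times higher in control (a median over 5 other cell types, described below), and its part in the ratio was not tested. RPE cells, taken by their own genes, made up 6.63% of control and 9.70% of Dox, and fibroblasts 56.6% and 55.8%. Other cell types were also lower in Dox. Smooth muscle cells made up 4.09% of control and 2.57% of Dox, and macrophages 1.73% and 1.12%. Endothelial cells made up 1.28% and 0.803%, lymphocytes 1.15% and 0.887%, and Schwann cells 0.213% and 0.201%. The ratio moved with the gene that picked the cells, and the shares moved with the limit on depth. With Mlana in place of Pmel at the same limits, a rule added after the values were seen, there were 989 melanocytes in control and 441 in Dox, and the ratio was 1.71. With a limit of over 2000 UMIs per cell, also added after the values were seen, 666 and 187 melanocytes remained, or 3.88% and 1.48% of the kept cells, a ratio of 2.62. The control share was the higher under each of these rules, and the spread between preparations is unknown.

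The melanocytes were shallow. The median melanocyte held 2064 UMIs and 1089 genes in control (lowest 531 and highest 21576 UMIs) and 2087 UMIs and 1085.5 genes in Dox (513 to 17974), against 16755 and 19236 UMIs in RPE cells. Summed over cells, 4141452 UMIs stood behind the control values and 1187031 behind those of Dox. The mitochondrial share had a median of 2.90% in control and 2.84% in Dox, above the 1.44% and 1.34% of all kept cells. The libraries shared 441 barcodes, of which 1 was a melanocyte in both.

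Since such droplets also take up RNA that floats free after dissociation, every level was set against the mean UMIs of the gene in lymphocytes, macrophages, endothelial cells, smooth muscle cells and fibroblasts of the same library, each taken by 5 markers of its own or, for fibroblasts, by Dcn. The lowest of these 5 means is called the free RNA level here. It is too high a floor for a gene that all these cells express, and droplets with Pmel at 3000 CPM or more or with 10 Rpe65 UMIs or more were kept out of these types, which caps it. Free Pmel was 1.89 to 2.46 UMIs per cell over the 5 cell types in control and 0.532 to 0.707 in Dox. Melanocytes had a mean of 40.5 Pmel UMIs in control and 46.3 in Dox. Control thus carried the more free Pmel, by a median of 3.59 times over the 5 cell types, and the same ratio was 3.19 for Mlana, 3.20 for Dct and 3.52 for Tyrp1. The RPE genes went the other way, with control at 0.691 times the Dox level for Rpe65 and 0.591 times for Ttr. The libraries therefore differed in free RNA in opposite directions for the RNA of the pigmented cell types, before any melanocyte was compared.

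**Figure D1:**
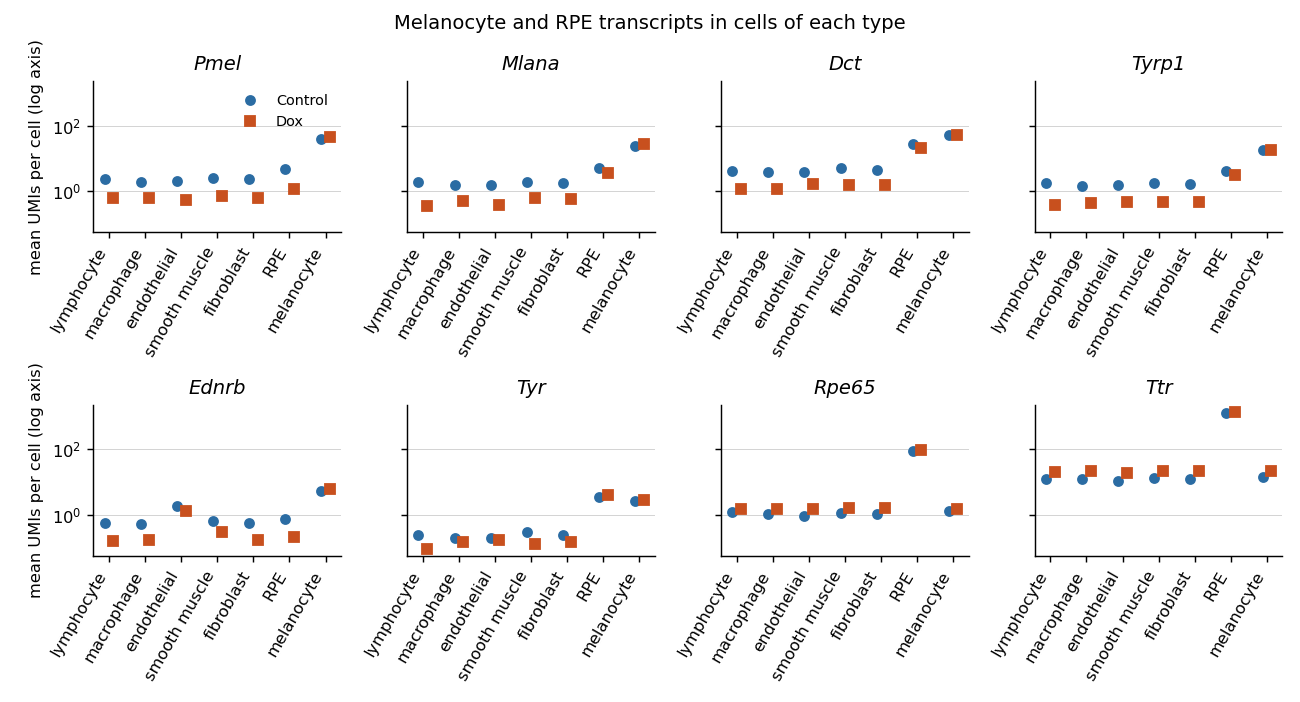
Mean UMIs per cell (log axis) of 6 melanocyte genes and of the RPE genes Rpe65 and Ttr in 7 cell types of the control (circles) and Dox (squares) libraries. In the 5 cell types at the left, melanocyte transcripts such as Pmel are higher in control and those of Rpe65 and Ttr higher in Dox, while in melanocytes the points of the libraries lie close together.

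The marker genes describe the label and are no test of it, since they were given with the cell type and Pmel chose the cells. Pmel (ENSMUSG00000025359, chromosome 10 from 128704195 to 128720238 on GRCm38, GENCODE vM21), which forms the fibrils of the melanosome, chose the cells and had 12723 and 14106 CPM in control and Dox. Mlana (chromosome 19 from 29697824 to 29708634), a melanosome protein needed for the maturation of PMEL, had 7546 and 8151 CPM in control and Dox, or 15.3 and 79.6 times the free RNA level. Hhatl (chromosome 9 from 121784016 to 121792507), related to the acyltransferase of hedgehog proteins, had 264 and 332 CPM in control and Dox, or 36.7 and 188 times that level. Ednrb (chromosome 14 from 103814625 to 103844402), the endothelin receptor, had 1703 and 1804 CPM in control and Dox. Tyr (chromosome 7 from 87424771 to 87493512), tyrosinase, which starts melanin synthesis, had 842 and 858 CPM in control and Dox. Apart from Pmel, whose level the rule fixed, the other 4 markers stood above the free RNA level by 10.2 times or more in each library. When each cell was thinned to 500 UMIs, Mlana was found in 83.0% of control and 89.8% of Dox melanocytes (96.7% and 98.1% without thinning), and in 22.4% and 7.30% of lymphocytes (73.7% and 25.5% without thinning), whose median depth was 3548 and 3805 UMIs. Hhatl, at a lower level, was found in 7.91% and 8.84% of thinned melanocytes and in 0 of 232 control and 1 of 137 Dox lymphocytes, where 0 of 232 allows up to 1.29% of thinned cells with a UMI (3 counts of 232). Without thinning, Hhatl was found in 3.88% and 2.19% of lymphocytes and in 29.2% and 30.9% of melanocytes.

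The RPE genes bound the label on the other side. Rpe65, capped by the rule, was at 1.28 UMIs per melanocyte in control and 1.51 in Dox, which is 1.40 and 1.02 times the free RNA level. Ttr, the most abundant RPE gene and not used by the rule, was at 14.3 and 22.3 UMIs, or 1.36 and 1.17 times that level, whereas RPE cells held 1285 and 1448 UMIs of it. None of the 15 RPE genes with at least 20 UMIs reached 3 times the free RNA level in both libraries. Their summed level was 7523 and 10383 CPM in control and Dox. How many of all genes with at least 20 UMIs reached 3 times the free RNA level was not counted, here or for the lists below.

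At the edges of the rule the cells were less distinct, and inside the rule more so in control for Mlana and Dct. The 121 control cells with 3000 to under 4000 Pmel CPM had 2638 CPM of Mlana and the 116 with 2000 to under 3000 had 1664 CPM, and in Dox the corresponding 26 and 19 cells had 5142 and 1331 CPM. Among droplets at 3000 CPM or more, the 132 control droplets with exactly 5 Pmel UMIs had 3.36 Mlana UMIs each and the 138 with 4 had 2.64, against 5.03 and 3.90 in the 37 and 49 Dox droplets. In control cells of 500 to 700 UMIs (61 melanocytes) Mlana stood at 2.23 UMIs per cell, 1.42 times the free RNA level, and Dct at 1.51 times. In Dox (13 melanocytes) the values were 3.38 UMIs, 10.1 times for Mlana and 5.00 times for Dct. Above 2000 UMIs the same genes were at 26.1 and 22.5 times the free RNA level in control and at 130 and 74.1 times in Dox. The shallowest control melanocytes thus held little more Mlana and Dct than the free RNA of their library. Ednrb and Tyr went the other way in cells of 500 to 700 UMIs. They were at 1.54 and 2.09 times the free RNA level in control and at 0 and 0.88 times in Dox, from 0 and 1 UMIs there.

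**Figure D2:**
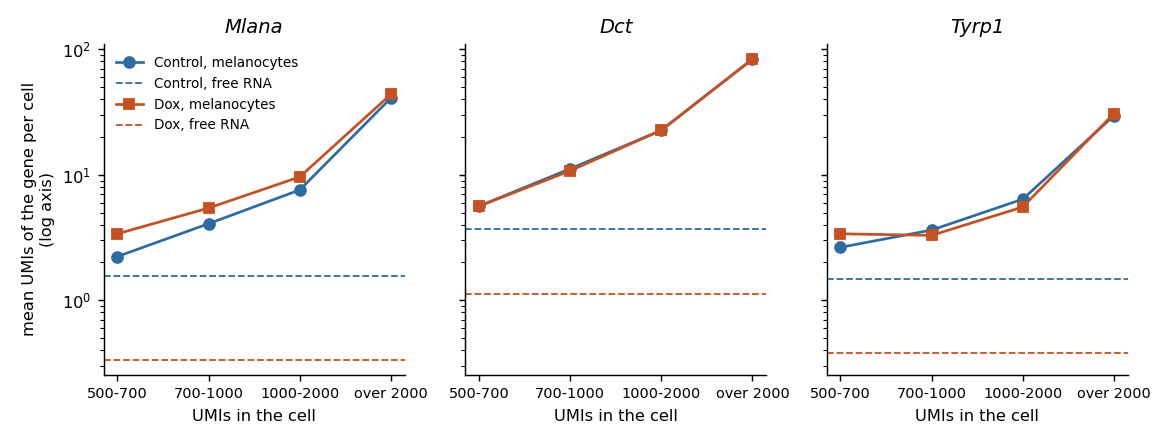
Mean UMIs per cell (log axis) of Mlana, Dct and Tyrp1 in melanocytes by the total UMIs of the cell, with the free RNA level of each library as a dashed line. The melanocytes of the libraries run close together, while the control line of free RNA lies above that of Dox, so that in control cells of 500 to 700 UMIs Mlana is 1.42 times it.

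Droplets under 1000 UMIs that the rule left out were mostly of no type. In control, 842 of 1297 kept droplets of this depth had none of the cell type names used here, and they held 2.13 Pmel UMIs each, 1.13 times the free RNA level. In Dox, 1269 of 1689 had none and held 0.841 Pmel UMIs, 1.58 times the free RNA level, with Mlana at 3.10 times and Dct at 2.55 times. Melanocytes of the same depth had 7.91 Pmel UMIs in control and 7.10 in Dox, a gap that the rule fixed. For genes that it did not use the gap was smaller in control, where Mlana was at 3.51 UMIs in melanocytes and 1.84 in droplets of no type, and Dct at 9.46 and 4.92. In Dox Mlana was at 4.78 and 1.04 UMIs, and Dct at 9.12 and 2.87.

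The leading genes were those with the highest fold over all other kept cells at 50 CPM or more and 50 UMIs or more in each library. They describe the cells and test nothing, since Pmel chose them. In the order of the lower of their folds in the libraries, which for all 10 was that in control, they were Gm10863, C2cd4b, Snhg7os, Tbx1, Hhatl, Pax3, Pmel, Gjb6, Prb1 and Gm10067. Gm10863 (chromosome 15 from 79166041 to 79227524) is a noncoding transcript that begins 800 bases from the gene of SOX10, on the other strand, and had 74.9 and 61.5 CPM in control and Dox, a fold over other cells of 34.9 and 61.3. C2cd4b had 203 and 187 CPM in control and Dox. Snhg7os is annotated as antisense, and as the use of strand in the counting is not given in the sources used here, its 106 and 86.8 CPM are uncertain. Tbx1, a T-box factor, had 110 and 103 CPM in control and Dox. Gjb6, a connexin of gap junctions, had 493 and 559 CPM in control and Dox, and Gjb2, another connexin, chosen after its values were seen, had 606 and 597 CPM.

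Prb1, a proline-rich secreted protein, was carried by few cells. Of its 481 UMIs in control, 66.1% lay in 5 of the 69 melanocytes with a UMI, and of its 188 UMIs in Dox 82.4% lay in 5 of 19. The neuropeptide gene Cck, chosen after its values were seen, was spread more widely, with 3691 UMIs in 650 control melanocytes and 1026 UMIs in 177 Dox melanocytes, and had 891 and 864 CPM in control and Dox, or 18.3 and 64.7 times the free RNA level. Its thinned share was 21.8% of control and 22.7% of Dox melanocytes (49.9% and 48.9% without thinning), against 1.72% of control and 0 of 137 Dox lymphocytes, which allows up to 2.19% of thinned cells with a UMI (3 counts of 137), and 15.9% and 4.38% of lymphocytes without thinning.

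Transcription factors of the lineage were the next group. Mitf had 418 and 371 CPM in control and Dox (log2 ratio of Dox over control −0.17, −0.33 to −0.02). Sox10 had 293 and 340 CPM in control and Dox (0.21, 0.05 to 0.38), or 21.7 and 64.2 times the free RNA level. RPE cells held Sox10 too, at 70.9 and 69.8 CPM, and Schwann cells at 629 and 588 CPM. Pax3 had 131 and 126 CPM in control and Dox (−0.05, −0.32 to 0.21), against 2.63 and 0.608 CPM in RPE cells. Otx2, a factor of the RPE, was at 1.46 and 1.19 times its free RNA level. Of 12 factors with at least 20 UMIs, 9 reached 3 times the free RNA level in both libraries.

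Against RPE cells of the same library, 9 of these 12 factors were over 2-fold higher in melanocytes in control and 9 in Dox, where the share over all 11216 genes was 32.6% in control and 31.2% in Dox. Of 12 genes of melanin synthesis, 11 and 11 were over 2-fold higher, with a median log2 ratio of 3.05 in control and 3.41 in Dox (0.58 and 0.52 over all genes). Pmel and Mlana are among them and the first was used by the rule. Tyr was the closest between the pigmented cell types among the markers, at a log2 ratio of 2.06 in control. Of 11 genes that melanocytes share with Schwann cells, such as S100b, 10 and 9 were over 2-fold above the RPE. RPE cells also contain free melanocyte RNA, which is not removed from these ratios.

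The comparison of Dox with control followed. Of 11216 genes with at least 20 UMIs over both libraries, 98 (0.874%) were over 2-fold higher in Dox melanocytes and 542 (4.83%) over 2-fold lower, together 5.71%, with a median log2 ratio of −0.02. Most of these genes were sparse. With at least 100 UMIs, 3 of 6703 genes were over 2-fold higher and 82 lower.

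Of 12 genes of melanin synthesis, 0 passed 2-fold in either direction, where 5.71% of all genes did, so that the count alone does not set them apart. Their median log2 ratio was 0.06. Dct, the dopachrome tautomerase, had 16300 and 16001 CPM in control and Dox (−0.03, −0.05 to −0.00), and Tyrp1, the tyrosinase-related enzyme, 5596 and 5589 CPM in control and Dox (−0.00, −0.04 to 0.04). Tyr had a log2 ratio of 0.03 (−0.08 to 0.13), Slc45a2, a melanosome transporter, of 0.02 (−0.07 to 0.12), and Slc24a5, an ion exchanger of pigment cells, of 0.13 (0.05 to 0.21). Mlana was at 0.11 (0.08 to 0.14) and Hhatl at 0.33 (0.16 to 0.50). Pmel, at 0.15 (0.12 to 0.17), was bounded from below by the rule in both libraries. In fibroblasts, whose counts of these genes were not separated from free RNA, the median of the list was −1.30 and in RPE cells −0.28.

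Genes of melanosome formation and transport had a median of −0.04, with 0 of 29 past 2-fold (5.71% over all genes). Mlph, which links melanosomes to the motor, had 794 and 889 CPM in control and Dox (0.16, 0.06 to 0.26), Myo5a, the motor itself, 649 and 608 CPM (−0.09, −0.21 to 0.03), and Rab38, a small GTPase of melanosome supply, 504 and 456 CPM (−0.15, −0.29 to −0.01). Gpnmb, a glycoprotein of melanosomes and lysosomes, had 3658 and 4033 CPM in control and Dox (0.14, 0.09 to 0.19). Only 12 of the 29 reached 3 times the free RNA level in both libraries. The values of subunits such as Bloc1s1, at 1.39 and 1.71 times, and Ap3d1, at 1.08 and 1.11 times, cannot be separated from free RNA.

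Receptors and signalling genes had a median of −0.00, with 0 of 13 past 2-fold, and the transcription factors −0.06, with 0 of 12 (5.71% over all genes). Ednrb was at 0.08 (0.01 to 0.15). Kit, the receptor of stem cell factor, had 76.3 and 56.4 CPM in control and Dox (−0.43, −0.84 to −0.05), from 316 and 67 UMIs. Met, the receptor of hepatocyte growth factor, had 359 and 340 CPM in control and Dox. Among the genes shared with Schwann cells the median was 0.20, with 0 of 11 past 2-fold, again beside 5.71% over all genes, and S100b, a calcium-binding protein, had 2618 and 3018 CPM in control and Dox (0.21, 0.15 to 0.26).

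**Figure D3:**
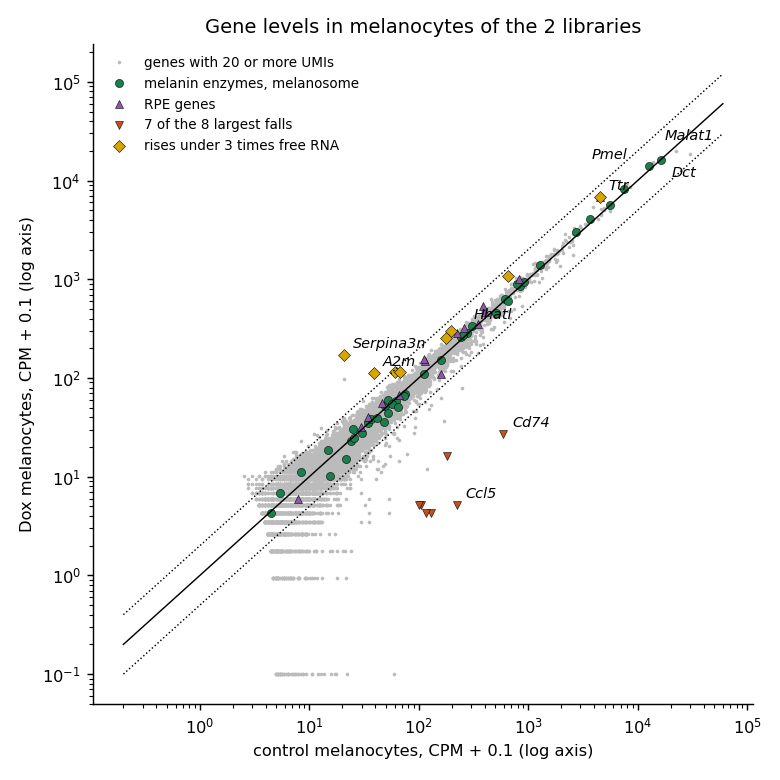
CPM of genes with 20 or more UMIs in control (x) and Dox (y) melanocytes on log axes with 0.1 added, with solid and dotted lines at equal and 2-fold levels. Genes of melanin synthesis and the melanosome lie along the diagonal, 7 genes, among them Ccl5 and Cd74, lie far below it, and Serpina3n and A2m, which are under 3 times free RNA, lie above it.

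To name changes that stand clear of free RNA, genes at 100 CPM or more in a library, with 50 UMIs or more, were required to reach 3 times the free RNA level in the library where they were higher. Of 1653 genes, 451 met this. Among the 451, 0 were over 2-fold higher in Dox and 10 were over 2-fold lower. A gene that fell could meet the limit through control alone, so these counts describe the choice and support nothing. Of 382 genes that met it in both libraries, 0 were over 2-fold higher and 1, Hbb-bs, was over 2-fold lower. Any UMI meets the limit where the free RNA level is 0, as for Hbb-bs in Dox with 5 UMIs. Under the alternative ways of processing the log2 ratio of Hbb-bs lay between −6.74 and −0.52, so this call did not hold throughout.

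The 7 falls named next, all among the 8 largest, came mostly from a handful of control cells. Ccl5, a chemokine of T cells, had 917 UMIs in control, 571 of them in 1 cell, and 6 in Dox. Hbb-bs, a hemoglobin, had 485 UMIs in control, 410 of them in 1 cell, and 5 in Dox. The antigen presentation genes H2-Eb1, Cd74, H2-Ab1 and H2-Aa and the cytokine Il1b had 69.4% to 75.2% of their control UMIs in 5 cells each. Cd74 went from 2440 UMIs to 32, and H2-Aa from 756 to 19. The intervals of such ratios take molecules as independent, which UMIs of 1 cell are not.

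Markers of other cell types moved with these genes. At least 5 UMIs over the 5 markers of another cell type were found in 55 control melanocytes (4.22%) and 6 in Dox (1.66%), by type 18 and 2 for smooth muscle, 13 and 2 for macrophages, 11 and 2 for endothelial cells, 10 and 0 for lymphocytes and 4 and 0 for Schwann cells. The summed level of 7 T and NK cell genes, with Nkg7 the most abundant, was 59.2 and 4.21 CPM in control and Dox, where 4 of the 7 were at 0 (Trac, Nkg7, Gzma and Cd2). Over 7 macrophage genes, led by C1qb, it was 173 and 114 CPM, over 8 endothelial genes 246 and 127 CPM with Cdh5 at 0 in Dox, over 7 smooth muscle genes, led by Acta2, 502 and 332 CPM, and over 5 erythrocyte genes, led by Hbb-bs, 142 and 5.90 CPM with Hbb-bt and Alas2 at 0 in Dox. Without the cells that bear markers of another type, 11 genes were over 2-fold lower in place of 10. This exclusion used markers of lymphocytes, macrophages, endothelial, smooth muscle and Schwann cells, so lower levels of their genes after it follow from its construction and support nothing. The summed levels that it left in control and Dox were 13.5 and 4.33 CPM for T and NK cell genes, from 51 and 5 UMIs, 112 and 58.8 CPM for macrophage genes, 94.95 and 101 CPM for endothelial genes and 294 and 192 CPM for smooth muscle genes. MHC class II genes were at 737 and 55.4 CPM. Ccl5 was then at −4.97 and Cd74 at −3.96, against −5.34 and −4.43. Erythrocyte genes were not among the markers of this exclusion. The size of these falls depended on the processing. Ccl5 lay between −7.45 and −2.49 and Cd74 between −5.26 and −2.78 over the alternatives that gave a value. The smallest falls of both were those in cells thinned to 500 UMIs.

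The remaining falls were Ccl4 and Plk2, chosen after their values were seen. Ccl4, a chemokine of macrophages and T cells, had 491 UMIs in control, 60.9% of them in 5 cells, and 14 in Dox. Plk2, a kinase induced by stress and by p53, was spread over many cells. It had 537 UMIs in 305 control melanocytes and 63 UMIs in 48 Dox melanocytes, or 130 CPM (119 to 141) and 53.1 CPM (40.8 to 67.9), a log2 ratio of −1.28 (−1.69 to −0.91). Its level was 3.42 times that of free RNA in control and 1.49 times in Dox. Fibroblasts had 94.9 and 90.8 CPM in control and Dox, and RPE cells 17.1 and 20.7 CPM.

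The 8 largest rises among the 451 genes were under 2-fold. Gsta2, a glutathione transferase, had 70.5 and 108 CPM in control and Dox (0.62, 0.30 to 0.92). Pla2g5, a secreted phospholipase, had 130 and 191 CPM in control and Dox (0.55, 0.32 to 0.78), and Car6, a secreted carbonic anhydrase, 123 and 175 CPM in control and Dox (0.52, 0.27 to 0.75). Gprc5b, Camk2n1, Wdfy1, Enho and Prb1 followed at log2 ratios from 0.49 to 0.45. In Dox 36.1% of the Car6 UMIs and 82.4% of the Prb1 UMIs lay in 5 cells, so these ratios rest on few cells too. In cells thinned to 500 UMIs Wdfy1, Enho and Gprc5b were at −0.21, −0.05 and −0.04, and with the median free RNA taken off Wdfy1 was at 1.57, so that the direction or size of these 3 depends on the processing.

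Of the 1653 genes at 100 CPM or more, 2 were over 2-fold higher in Dox, and both were near the free RNA level. Serpina3n, a protease inhibitor of the acute phase, had 20.8 and 170 CPM in control and Dox melanocytes (3.03, 2.66 to 3.42), which was 1.36 and 1.44 times the free RNA level, while RPE cells went from 82.9 to 1230 CPM. Its ratio lay between 2.68 and 3.59 under every alternative that gave it a value, those with free RNA taken off included. Melanocytes held 0.0661 and 0.558 UMIs of Serpina3n per cell in control and Dox. The means of the 5 other cell types ran from 0.0486 to 0.327 and from 0.387 to 0.796. What is left after free RNA is taken off therefore cannot be assigned to melanocytes. A2m, a plasma protease inhibitor, had 38.9 and 112 CPM in control and Dox melanocytes (1.53, 1.19 to 1.87), at 1.97 and 1.12 times free RNA. With the lowest free RNA level taken off, the A2m ratio was −0.69. Ttr, the RPE gene described above, had 4508 and 6812 CPM (0.60, 0.56 to 0.63). All 3 genes were under 3 times the free RNA level in both libraries. The other 96 genes over 2-fold higher were below these limits, with a median of 12 UMIs in Dox. Of them 79 reached 3 times the free RNA level in Dox, 51 of the 96 having a free RNA level of 0 there, and 45 reached it in both libraries. The highest was Prpmp5, chosen after its values were seen, at 20.5 and 98.6 CPM in control and Dox (2.26, 1.85 to 2.68), and its 117 UMIs in Dox lay in 14 cells, 40 of them in 1.

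Genes driven by p53, which is activated by DNA damage, were a list fitted to the drug. Of 27, 0 were over 2-fold higher and 3 over 2-fold lower in Dox melanocytes (Plk2, Plk3 and Pmaip1), against 0.874% and 4.83% over all genes, and the median log2 ratio was −0.14, against 0.40 in RPE cells and 0.02 in fibroblasts. The difference between the cell types was not tested. In cells thinned to 500 UMIs the median in melanocytes turned to 0.21. Cdkn1a, which encodes the cell cycle inhibitor p21, had 175 and 119 CPM in control and Dox melanocytes (−0.56, −0.83 to −0.30), at 1.23 and 0.73 times the free RNA level, and a ratio of 1.46 in RPE cells. Mdm2, the ligase that degrades p53, had 42.3 and 37.9 CPM (−0.14, −0.66 to 0.32), at 0.89 and 0.74 times free RNA. Phlda3, an inhibitor of AKT signalling, stood above free RNA by 8.52 and 6.30 times and had 153 and 196 CPM in control and Dox (0.36, 0.14 to 0.58). Only 3 of the 27 genes reached 3 times the free RNA level in both libraries.

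Interferon-responsive genes had a median of −0.05, with 0 of 35 past 2-fold (5.71% over all genes), against 0.60 in RPE cells, a difference also not tested. Of the 35, 16 were higher in Dox, where 47.3% of all genes were. Only 6 of the 35 reached 3 times the free RNA level in both libraries. The share higher in Dox among all genes at that level was not counted, so the next count has nothing to be set against. Of the 6, 5 were higher in Dox. Among them were the antiviral genes Ifit3 at 0.41 (0.21 to 0.61) and Ifit3b at 0.45 (0.04 to 0.83), Bst2, a membrane protein that tethers virus particles, at 0.32 (0.20 to 0.45), and Ifitm3 at 0.17 (0.08 to 0.26), while Ifit1 was at −0.41 (−0.88 to 0.02). With the lowest and the median free RNA taken off, the median was 0.20 and 0.30. Those medians cover only the genes of the list still above 0 in both libraries. B2m, the light chain of MHC class I, had 1358 and 1498 CPM in control and Dox (0.14, 0.06 to 0.22). Immediate early and heat shock genes had a median of −0.19, with 0 of 22 past 2-fold (5.71% over all genes) and 4 of 22 higher in Dox, where 47.3% of all genes were. Fosb was at −0.57 (−0.73 to −0.41), Egr1 at −0.50 (−0.58 to −0.42) and Fos at −0.18 (−0.22 to −0.14), all of them factors of the immediate early response, while the chaperone Hspa1a was at 0.39 (0.19 to 0.58). With the mean of the cells' own CPM, in which shallow cells weigh as much as deep ones, the median of this list was −0.54. The differences of Egr1 and Fos were larger in shallow cells. At 1000 to 2000 UMIs Egr1 had 2372 and 809 CPM in control and Dox, and above 4000 UMIs 1770 and 1564 CPM, or 2.39 and 0.81 times and 8.30 and 7.88 times the free RNA level. Fos had 4957 and 3074 CPM at 1000 to 2000 UMIs and 5792 and 5931 CPM above 4000, or 1.52 and 0.97 times and 8.29 and 9.43 times that level. Of the 22 genes, 6 reached 3 times the free RNA level in both libraries.

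Groups of general cell function lay close to 0. Nuclear genes of oxidative phosphorylation had a median of 0.11, with 77 of 94 higher in Dox (47.3% over all genes). Of the 94, 0 were over 2-fold higher and 1 over 2-fold lower, against 0.874% and 4.83% over all genes. Only 2 of the 94 reached 3 times the free RNA level in both libraries. Ribosomal protein genes, none of 77 at that level, were at 0.05. With the lowest free RNA taken off, those still above 0 in both libraries were at 0.75. Lysosomal genes were at 0.09 and genes of metal binding and antioxidant defence at 0.12. Among the last, the ferritin chain gene Ftl1 had 8005 and 9268 CPM in control and Dox (0.21, 0.18 to 0.24), Gpx4, which reduces lipid peroxides, 2183 and 2858 CPM (0.39, 0.33 to 0.45) at 2.05 and 2.12 times free RNA, and Gsta4 1723 and 2042 CPM (0.25, 0.18 to 0.31) at 11.9 and 22.9 times.

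**Figure D4:**
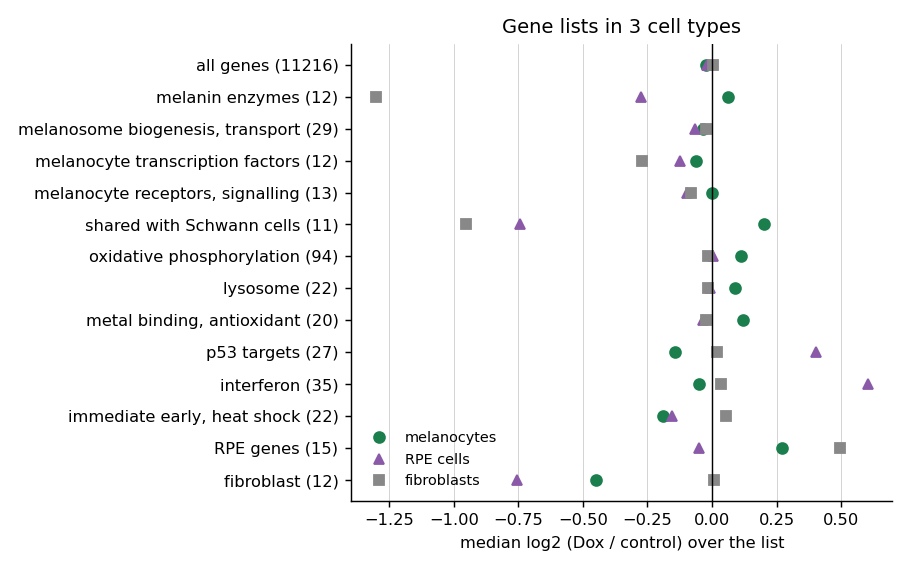
Median log2 ratio of Dox over control over the genes of each list (number with at least 20 UMIs in melanocytes in parentheses) in melanocytes, RPE cells and fibroblasts, 1 library per condition and no error drawn. In melanocytes the lists of melanin, melanosome, factor and receptor genes lie between −0.06 and 0.06, p53 targets at −0.14 and interferon genes at −0.05, while in RPE cells p53 targets are at 0.40 and interferon genes at 0.60.

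Melanocytes differed most among themselves in Malat1, a noncoding RNA kept in the nucleus. In cells thinned to 500 UMIs its variance over the cells was 46.1 times its mean in control and 41.0 times in Dox, against a median of 1.17 and 1.19 over 246 genes with at least 100 UMIs in each library, and 20 of these genes were above 2 in both. Gm42418, which overlaps ribosomal RNA, was next at 10.6 and 10.5, and Ptgds, a prostaglandin synthase, at 4.60 and 4.28. Pmel, at 3.39 and 2.96, was bounded by the rule.

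The Malat1 level of single melanocytes had a median of 8869 CPM in control (10th to 90th percentile 1554 to 145190) and 4373 CPM in Dox (896 to 100025). The 90th percentile was 53303 and 93833 CPM in RPE cells of control and Dox, the latter close to that of Dox melanocytes, and 10819 and 9753 CPM in fibroblasts. At or above 50000 CPM, a limit set after the values were seen, there were 330 control melanocytes (25.3%, 23.0 to 27.8) and 55 Dox melanocytes (15.2%, 11.7 to 19.3), of which 49 and 5 lay within 20% of the limit. Their median depth was 1891.5 and 2077 UMIs, near the 2280 and 2153 of the other melanocytes.

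The Malat1-rich cells had less of some pigment genes. In control they had 2381 CPM of Mlana against 8600 CPM in the other melanocytes, and in Dox 2930 against 8820 CPM. Pmel was at 7330 against 13823 CPM in control and at 8077 against 14878 CPM in Dox. Tyr was at 870 against 837 CPM in control and 1023 against 836 CPM in Dox, and Ednrb at 1460 against 1752 CPM in control and 1832 against 1800 CPM in Dox. The mitochondrial share was 5.26% against 2.63% in control and 5.12% against 2.67% in Dox, and its part in the difference was not tested. The pattern of low Mlana beside even Tyr was thus present in each library. Malat1 itself takes up part of the UMIs to which every CPM of these cells is scaled. Over all melanocytes Malat1 went from 29883 CPM in control to 18413 CPM in Dox (log2 ratio −0.70), at 5.80 and 2.41 times the free RNA level. The ratio was −1.59 with the median free RNA taken off and −0.48 in melanocytes under 50000 CPM of Malat1.

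**Figure D5:**
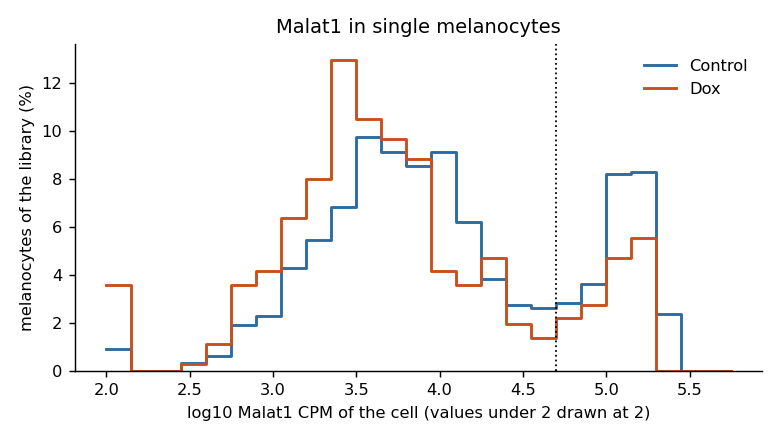
Share of melanocytes (%) by the log10 of their Malat1 CPM in the control and Dox libraries, with 50000 CPM as a dotted line. Each library has a main hump and a smaller hump at the right, and 25.3% of control and 15.2% of Dox melanocytes lie at or above the line.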

How the data were processed

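Single-cell 5′ libraries were made from eyes pooled per condition, after papain digestion and removal of dead cells. Per the file headers, the authors ran Cell Ranger 4.0.0 on mm10. They deposited raw UMI counts of 32285 genes in 20381 control and 15649 Dox barcodes with 117731270 and 103997248 UMIs. No doublet caller was run, and cells with markers of another type were left out in an alternative instead. UMIs were summed over the cells of a type and given as CPM, with exact Poisson intervals. Shares have Clopper-Pearson intervals and ratios exact conditional binomial intervals, at 95%. Ratios are log2 with 0.5 counts added, for genes with at least 20 UMIs over both libraries. A gene was called past 2-fold. RPE cells had at least 10 Rpe65 UMIs with Dcn under 2000 CPM, fibroblasts Dcn at 2000 CPM or more, and each other type at least 5 UMIs and 2000 CPM over its 5 markers, 3 times the next type. Named genes were the 5 markers, list members, the 10 leading genes and the 8 largest rises and falls, and any other is said to be chosen later. Results for some genes are not reported here. Thinning took 500 UMIs per cell, in at most 1500 cells of a type. The members and lists were chosen with earlier results of these data known. The steps were tested on simulated data. Python 3.11.15, numpy 2.4.6, scipy 1.17.1, pandas 2.3.3 and matplotlib 3.10.9 were used. Positions are from GENCODE vM21 and promoters from RefSeq (GRCm38.p6), matched by symbol.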

Additional observations from a re-analysis of the deposited data

Results flagged for a closer look

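The markers, the leading genes, the named rises and falls and some other genes named above were searched for opposite signs in melanocytes and fibroblasts. In 8 of them the ratio of Dox over control had opposite signs, with at least 1 of the ratios past 2-fold. Each interval excluded 0, and the difference itself was not tested. Pmel chose the melanocytes and was bounded by the rule, so its sign there supports nothing. The intervals take molecules as independent. In melanocytes, 410 of the 485 control UMIs of Hbb-bs lay in 1 cell and 82.4% of the Dox UMIs of Prb1 in 5 cells, so for these genes they do not hold. For the melanocyte genes the log2 ratio in fibroblasts was −2.02 for Pmel, −1.75 for Mlana, −1.53 for Hhatl, −1.85 for Ednrb, −1.81 for Gjb6, −1.67 for Prb1 and −1.78 for Car6, against 0.15, 0.11, 0.33, 0.08, 0.18, 0.45 and 0.52 in melanocytes. The fibroblast counts of these melanocyte genes were not separated from free RNA, which differed between the libraries. Fibroblasts held 2.26 and 0.593 Pmel UMIs per cell in control and Dox, within the range of the other cell types used for free RNA. The other way round, Hbb-bs was at 1.92 in fibroblasts and at −4.66 in melanocytes (−6.74 to −0.52 over the alternatives).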

How the results depend on the processing

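No paired analysis was possible because each condition has 1 library, and no replicate could be left out. Of 21 alternatives, 5 of them chosen after seeing the data, 12 change which cells are counted, and in these the control share of melanocytes was 3.88% to 6.45% and above the Dox share (1.48% to 2.86%). The shares of control and Dox were 4.19% and 1.50% with Pmel at 10 UMIs and 5000 CPM, 5.41% and 1.91% with Rpe65 under 3 UMIs, 4.90% and 2.86% with Mlana in place of Pmel (a ratio of 1.71), 5.22% and 2.04% with 3 times the control free RNA over 5 genes, 3.88% and 1.48% over 2000 UMIs, and 4.81% and 1.99% with Malat1 under 50000 CPM (a ratio of 2.42). Over 1000 UMIs the control share was 5.84%. Genes over 2-fold higher and lower in Dox numbered 170 and 1124 with the mean of cell CPM, 3 and 82 with at least 100 UMIs, 1226 and 1733 with no filter and 1109 and 1049 with the lowest free RNA level taken off. There were 602 higher with the median free RNA level taken off and 340 lower with the stricter Pmel limits. The RPE median was −0.74 and −0.99 with the lowest and the median free RNA taken off and 0.80 with Mlana in place of Pmel. With free RNA taken off, only genes still above 0 in both libraries were kept, 7989 with the lowest level and 3401 with the median. The p53 median was −1.13 with the median free RNA taken off, which left 3401 genes in the comparison, and 0.21 in thinned cells. The median of immediate early and heat shock genes was −0.54 with the mean of cell CPM, −0.51 in thinned cells and −0.35 with Mlana in place of Pmel, and that of melanin synthesis −0.044 in the last. A2m turned from 1.53 to −0.69 with the lowest free RNA taken off. The cause of these shifts was not tested. By the limits set here, 233 values of the main results did not move, the p53 median of 0.21 among them. Shares and their ratio had to stay in their intervals and numbers of genes within 1.5 times. List medians had to move by no more than the counting error of a typical gene of the list, which is not the error of a median. Depth limits all values of shallow cells, and genes under 3 times free RNA cannot be assigned to melanocytes.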
